A study of Mus musculus with 6 samples.

Results

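Receptors for formyl peptides, lipid mediators and metabolites were followed as transcripts in bone marrow-derived macrophages (BMDMs). The group holds 10 of the 40481 genes in the count table: *Fpr1*, *Fpr2*, *Ptafr*, *Ltb4r1*, *Cysltr1*, *Ccrl2*, *Hcar2*, *Gpr84*, *Gpr35* and *Adora2b*. They were chosen by symbol as G protein-coupled receptors of macrophages around *Fpr1*, itself picked because its counts were lower in one genotype. The difference in *Fpr1* between the genotypes is therefore given as a description without a test.

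RNA was sequenced from unstimulated BMDMs of 3 wild-type (WT) samples and 3 samples in which floxed *Scd2* alleles were deleted by lysozyme M-Cre (Scd2-m/-m, called Scd2-KO in the labels), with 1 poly(A)-selected library per sample. *Scd2* encodes a stearoyl-CoA desaturase, an enzyme that makes monounsaturated fatty acids. Both groups were grown from mouse bone marrow for 5 to 6 days in medium with 10% CMG-conditioned medium, and then kept in 2%, and the RNA had integrity numbers of at least 9.3. The lysozyme M promoter is active in cells of the myelomonocytic lineage, and not only in macrophages. Mice of both sexes, from 2 to 5 months of age, were used in the study. The sources used here do not give whether the WT mice carried the Cre transgene or floxed alleles, the age and sex behind each sample, or the day it was collected. They do not state either which samples came from separate mice, so p-values measure the spread between these samples.

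These receptors span the membrane 7 times, and many are encoded without an intron in the coding sequence. By background knowledge, the formyl peptide receptors bind peptides that begin with formylmethionine, as those of bacteria and mitochondria do, and guide phagocytes towards them through Gi proteins. Lipid mediator receptors read platelet-activating factor and leukotrienes made from membrane phospholipids, while the metabolite receptors sense ketone bodies, medium-chain fatty acids, tryptophan breakdown products and adenosine. In the annotation used here, 7 of the 10 genes had a single coding exon, and *Fpr2*, *Cysltr1* and *Adora2b* had a coding sequence in 2 parts in at least 1 transcript.

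Each library held between 46285176 and 57629638 counts, and the totals of the genotypes overlapped. Levels are given as CPM, counts scaled by library size with edgeR's TMM factors, in the order of replicates 1, 2 and 3 and as the mean ± SD of 3 libraries. Differences are log2 fold changes, Scd2-m/-m over WT, so that negative values are lower in Scd2-m/-m BMDMs. Their false discovery rate (FDR) comes from edgeR's quasi-likelihood test over all 14778 genes that passed its filter on low counts, and a gene was called at an FDR below 0.05. The targeted gene *Scd2* had 66.9, 77.8 and 62.7 CPM in the WT libraries and 59.5, 38.0 and 39.8 CPM in the Scd2-m/-m libraries. This was 66.2% of the WT mean, with the highest Scd2-m/-m library just below the lowest WT library, and it did not pass the test (log2 fold change −0.59, standard error 0.19, FDR = 0.10, edgeR). A two-sided exact permutation test gave p = 0.1, the smallest possible with 3 libraries against 3. When Scd2-m/-m replicate 1, the Scd2-m/-m library with the most *Scd2*, was left out, *Scd2* was at −0.83 (FDR = 8.87e-05, edgeR). Leaving out any other library gave −0.66 to −0.48 without a call (FDR from 0.137 to 0.277, edgeR).

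Markers of macrophages were abundant in all 6 libraries. *Csf1r*, the receptor for macrophage colony-stimulating factor, averaged 7030 CPM in WT and 5410 CPM in Scd2-m/-m BMDMs, and the 10 macrophage markers summed to 38600 to 39700 CPM in WT and 22600 to 23300 CPM in Scd2-m/-m libraries. Without *Lyz2*, the sums were 16400 to 16500 CPM in WT and 13700 to 14300 CPM in Scd2-m/-m libraries. Of the 10 markers, 5 were called as lower and *Cd68* as higher (60.0% called, against 17.5% of all genes tested). *Lyz2*, the lysozyme M gene, fell from 22800 ± 584 to 9030 ± 357 CPM (FDR = 6.42e-08, edgeR). Without *Lyz2*, 4 of 9 markers were called as lower and 1 as higher (55.6% called). Cre was driven by the lysozyme M promoter, and whether the WT mice carried Cre is not given. The part of the Cre allele in the fall of *Lyz2* cannot be told apart from that of *Scd2* loss and was not tested. All 14 mitosis markers were called as higher in Scd2-m/-m BMDMs, as were 9.65% of all genes tested. The 14 summed to 57.6 to 67.3 CPM in WT and 173 to 193 CPM in Scd2-m/-m libraries. In bulk RNA, fewer cells of a type and less RNA per cell cannot be told apart, and the part of cell division or of the macrophage markers in the results below was not tested.

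All 10 receptors passed the filter on low counts. Of the 9 other than *Fpr1*, 5 were called. *Fpr2*, *Hcar2* and *Adora2b* fell, *Ptafr* and *Ltb4r1* rose, and *Cysltr1*, *Ccrl2*, *Gpr84* and *Gpr35* did not pass the test. Across all genes tested, 17.5% were called, 9.65% as higher and 7.84% as lower. The median log2 fold change was 0.02 over the 9 receptors and 0.00 over all genes tested. No receptor had an absolute log2 fold change above 2, which 0.663% of all genes had together with a call. In 8 of the 9 receptors other than *Fpr1*, *Cysltr1* being the exception, every library of one genotype lay above every library of the other, as did the libraries of 34.9% of all genes tested.

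**Figure D1:**
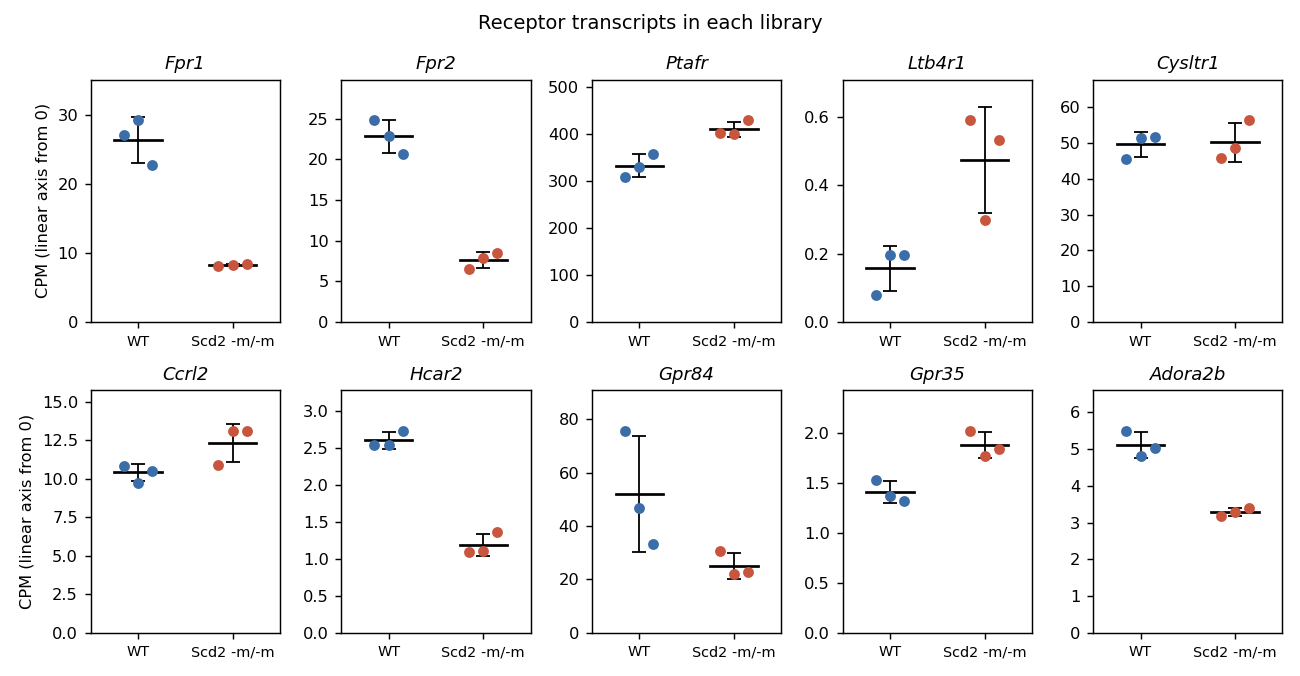
CPM of each receptor transcript (linear axes from 0) in the 3 WT (blue) and 3 Scd2-m/-m (red) libraries, with the mean and SD in black. *Fpr1* and *Fpr2* sit between 20.7 and 29.3 CPM in WT and between 6.58 and 8.48 CPM in Scd2-m/-m libraries, while the 2 groups of *Cysltr1* overlap.

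*Fpr1* encodes the high-affinity formyl peptide receptor, which directs neutrophils and macrophages towards bacterial peptides. It had 27.2, 29.3 and 22.8 CPM in the WT libraries and 8.10, 8.28 and 8.48 CPM in the Scd2-m/-m libraries. The 3 Scd2-m/-m libraries lay close together and far below the lowest WT library, which was replicate 3. The mean was 26.4 ± 3.30 CPM (SD, n = 3) in WT and 8.29 ± 0.192 CPM (SD, n = 3) in Scd2-m/-m BMDMs, 31.4% of the WT mean. The log2 fold change was −1.67 with a standard error of 0.10, and it ranged from −1.77 to −1.59 when each library was left out in turn. These values chose the gene, so they support nothing by themselves.

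*Fpr2* encodes the more promiscuous relative of *Fpr1*, which binds formyl peptides but also annexin A1, lipoxin A4 and serum amyloid A. Its transcript had 24.8, 22.8 and 20.7 CPM in the WT libraries and 6.58, 7.84 and 8.43 CPM in the Scd2-m/-m libraries. Again the groups were far apart. The mean fell from 22.8 ± 2.03 to 7.62 ± 0.947 CPM, which is 2.99-fold lower in Scd2-m/-m BMDMs (log2 fold change −1.58, standard error 0.10, 95% confidence interval −1.80 to −1.36, FDR = 3.63e-07, edgeR). Leaving out each library in turn gave −1.66 to −1.48. Of all genes tested, 0.528% were called as lower with a log2 fold change below −1, and *Fpr2* and *Hcar2* were the receptors of this group other than *Fpr1* among them.

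The 2 transcripts were at similar levels. Per kilobase of exonic length, the ratio of *Fpr1* to *Fpr2* was 1.07, 1.25 and 1.08 in the WT libraries and 1.21, 1.03 and 0.985 in the Scd2-m/-m libraries. The ratios of the genotypes overlapped, and the 2 transcripts were at 31.4% and 33.5% of their WT means.

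**Figure D2:**
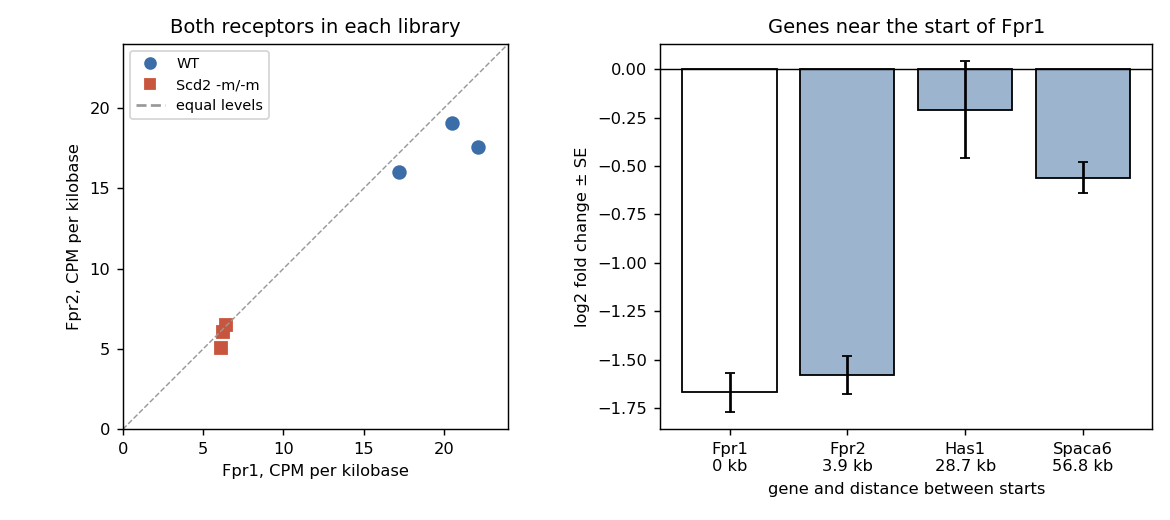
Left, levels of *Fpr1* and *Fpr2* in each library in CPM per kilobase of exonic length, with WT libraries as blue circles, Scd2-m/-m libraries as red squares and a dashed line of equal levels. Right, log2 fold change ± standard error of *Fpr1* (white bar, no test) and of the tested protein-coding genes whose starts lie within 150 kb of its start, where *Fpr2* lies at −1.58, *Has1* at −0.21 and *Spaca6* at −0.56.

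The 2 genes are neighbours. In GRCm38, *Fpr1* (ENSMUSG00000045551) lies on the minus strand at chr17:17876471-17883940 and *Fpr2* (ENSMUSG00000052270) on the plus strand at chr17:17887824-17893952, so that they are transcribed away from each other from starts 3884 bases apart. Because both transcripts fell, the 250 bases before each start are shown, 5′ to 3′ on the strand of the gene, from RefSeq (GRCm38.p6). Capitals mark matches on either strand to TTNNGNAA, the outer letters of the site of C/EBP factors, which act in myeloid cells.
*Fpr1*, chr17:17883940-17884189, minus strand: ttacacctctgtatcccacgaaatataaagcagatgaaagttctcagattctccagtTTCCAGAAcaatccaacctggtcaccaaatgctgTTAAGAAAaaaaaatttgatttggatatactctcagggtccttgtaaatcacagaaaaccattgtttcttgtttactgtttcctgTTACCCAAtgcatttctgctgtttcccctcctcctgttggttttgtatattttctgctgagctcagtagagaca
*Fpr2*, chr17:17887574-17887823, plus strand: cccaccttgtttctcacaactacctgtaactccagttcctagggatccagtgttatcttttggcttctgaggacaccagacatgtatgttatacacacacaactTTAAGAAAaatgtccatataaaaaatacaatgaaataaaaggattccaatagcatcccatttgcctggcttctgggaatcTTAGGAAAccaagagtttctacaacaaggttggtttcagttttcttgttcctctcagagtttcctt
The *Fpr1* window held 3 matches, at 193, 159 and 74 bases before the start, and the *Fpr2* window held 2, at 146 and 66 bases. The match TTAAGAAA occurred in both. These letters are common, as 36.8% of 32851 such windows of all genes held at least 1 match, and a match is no evidence of binding. How many windows held 2 or more matches was not counted.

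Windows were found for 8 of the 10 receptors, 11 windows in all, with none for *Hcar2* or *Cysltr1*. On both strands, TTNNGNAA also matched in the windows of *Adora2b* and *Gpr84*, so that 4 of the 11 windows held it, beside 36.8% of all windows. GGAAGT, the core of ETS sites such as that of PU.1, was found in those of *Adora2b* and *Gpr84* and in 19.7% of all windows. A 10-letter NF-kB site was found in windows of *Ccrl2* and *Gpr35* and in 17.6% of all windows, and the AP-1 letters TGANTCA in 1 of *Gpr35* and in 6.75% of all windows. The longer PU.1 letters GAGGAAGT, which contain GGAAGT, the CRE letters TGACGTCA and a 10-letter IRF site were found in none of the 11 windows, against 2.44%, 1.55% and 2.98% of all windows.

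Other *Fpr* genes and the neighbours of the pair were low or less changed. *Fpr3*, whose annotated start is 28 bases from that of *Fpr2*, had 2 counts in WT replicate 2 and 0 in the other 5 libraries, and *Fpr-rs3*, *Fpr-rs4*, *Fpr-rs6* and *Fpr-rs7* had 0 counts in all 6. *Has1*, a hyaluronan synthase gene whose start is 28735 bases from that of *Fpr1*, was not called (log2 fold change −0.21, FDR = 0.626, edgeR). *Spaca6*, 56782 bases away and known for a role in sperm-egg fusion, fell from 38.6 ± 4.16 to 26.2 ± 0.918 CPM (log2 fold change −0.56, FDR = 2.70e-04, edgeR), again with no overlap between the genotypes.

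Reads of the pair could be told apart over most of their length. The coding sequences of *Fpr1* and *Fpr2* were 69.8% identical over 1046 aligned bases, with a longest shared run of 50 bases, while those of *Fpr2* and *Fpr3* were 88.1% identical with a run of 94 bases. Of the 50-base stretches in the exons of *Fpr1*, 0.1% occurred in another gene. For *Fpr2* it was 31.5%, of which most were shared with the pseudogene *Gm5966*, not a row of the count table. The sources used here do not say how such reads were counted, so the level of *Fpr2* is less certain than that of *Fpr1*.

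Neutrophils are known to carry much *Fpr1* and *Fpr2*, so markers of neutrophils were read beside the pair. Of the 14 tested markers of the 19 listed, 8 rose and 2 fell (71.4% called, against 17.5% of all genes). Of those that rose, *Padi4*, a protein-citrullinating enzyme gene, had the highest level (12.1 and 15.3 CPM, log2 fold change 0.34, FDR = 0.0398, edgeR). Others were *S100a9*, a calprotectin subunit gene, which rose from 2.79 ± 0.359 to 8.74 ± 1.53 CPM (log2 fold change 1.65, FDR = 6.68e-06, edgeR), and *Ngp*, a granule protein gene, which rose from 2.51 ± 0.789 to 8.42 ± 1.66 CPM. The list summed to 241 to 263 CPM in WT and 200 to 234 CPM in Scd2-m/-m libraries. Most of that sum was *Csf3r* and *Mmp9*, which macrophages also express and which were the 2 that fell (log2 fold changes −0.28 and −1.62). *Ly6g*, which defines mature neutrophils, had 0 CPM in the WT libraries and at most 0.0358 CPM in Scd2-m/-m libraries, and *Cxcr2* averaged 0.168 and 0.236 CPM.

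Most markers of the other cell types a marrow culture could hold were low. None of the 3 tested mast cell and basophil markers and none of the 3 tested eosinophil markers was called, 3 of 7 tested dendritic cell markers were higher (summed level 2.74 to 3.48 CPM in WT and 7.92 to 10.0 CPM in Scd2-m/-m libraries), and 2 of 4 tested lymphocyte markers were higher, of which *Il7r* rose from 42.9 to 77.1 CPM. *Pf4* was the called gene of 5 tested erythroid and platelet markers and *Pecam1* that of 7 tested stromal markers, and both fell. Beside these counts, 17.5% of all genes tested were called, 9.65% as higher and 7.84% as lower. Each list held few tested genes, and whether its share of calls differed from that of all genes was not tested. *Cd3e*, which defines T cells, averaged 0.0145 CPM in WT and 0.0229 CPM in Scd2-m/-m BMDMs. The part of any of these cells in the receptor values was not tested.

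*Ptafr* (ENSMUSG00000056529, chr4:132564067-132582683, plus strand) encodes the receptor for platelet-activating factor, an ether phospholipid that activates phagocytes and platelets. It had 309, 330 and 358 CPM in the WT libraries and 402, 400 and 429 CPM in the Scd2-m/-m libraries. The groups did not overlap, but the difference was small beside that of the formyl peptide receptors. The mean rose 1.24-fold, from 332 ± 24.8 to 410 ± 15.9 CPM (log2 fold change 0.30, standard error 0.07, 95% confidence interval 0.16 to 0.45, FDR = 0.00611, edgeR), and it stayed between 0.25 and 0.36 when each library was left out.

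*Ltb4r1* (ENSMUSG00000046908, chr14:55765962-55768494, plus strand) encodes the high-affinity receptor for leukotriene B4, a chemoattractant for phagocytes. Its reads were few, with 4, 9 and 10 counts in WT against 33, 15 and 31 counts in Scd2-m/-m BMDMs. Every Scd2-m/-m library was higher, with replicate 2 the lowest of them. The mean rose from 0.157 ± 0.0666 to 0.474 ± 0.155 CPM (log2 fold change 1.59, standard error 0.47, 95% confidence interval 0.58 to 2.60, FDR = 0.0316, edgeR). The call was lost without WT replicate 1 (1.27, FDR = 0.106), WT replicate 2 (1.76, FDR = 0.0718), Scd2-m/-m replicate 1 (1.40, FDR = 0.106) or Scd2-m/-m replicate 3 (1.5, FDR = 0.0979). The low-affinity receptor gene *Ltb4r2*, whose start is 4534 bases away, had overlapping groups and was not called (log2 fold change 0.32, FDR = 0.761, edgeR). Among 17 tested protein-coding genes with starts within 150 kb, 3 were called, against 17.5% of all genes. *Ripk3* (0.97, FDR = 4.52e-05) and *Dhrs1* (0.23, FDR = 0.0147) were higher, and *Tm9sf1* was lower (−0.25, FDR = 0.0122, edgeR).

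*Cysltr1* (ENSMUSG00000052821, chrX:106574346-106603679, minus strand) encodes the receptor for the cysteinyl leukotrienes C4 and D4. It had 45.6, 51.4 and 51.6 CPM in the WT libraries and 45.8, 48.6 and 56.4 CPM in the Scd2-m/-m libraries. The groups overlapped over most of their range. The log2 fold change was 0.02 (95% confidence interval −0.15 to 0.20, FDR = 0.900, edgeR), so a change of more than 0.20 on the log2 scale in either direction lay outside the interval. *Cysltr2*, the second receptor for these leukotrienes, was far lower and rose from 0.678 ± 0.140 to 1.53 ± 0.210 CPM (log2 fold change 1.17, FDR = 0.00535, edgeR).

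*Ccrl2* (ENSMUSG00000043953, chr9:111054486-111057519, minus strand) encodes an atypical receptor that binds the chemoattractant chemerin without signalling and presents it to other cells. It had 10.8, 9.71 and 10.5 CPM in the WT libraries and 10.9, 13.1 and 13.1 CPM in the Scd2-m/-m libraries. Scd2-m/-m replicate 1 was nearly level with WT replicate 1, and the other two lay higher. The log2 fold change of 0.25 did not pass the test (95% confidence interval 0.04 to 0.46, FDR = 0.10, edgeR). It passed without Scd2-m/-m replicate 1, the lowest Scd2-m/-m library (0.33, FDR = 0.0317), and without no other library (0.21 to 0.28, FDR from 0.109 to 0.311, edgeR). *Cmklr1*, the signalling receptor for chemerin, fell from 98.4 ± 8.80 to 67.3 ± 3.48 CPM (log2 fold change −0.55, FDR = 1.33e-04, edgeR). *Ltf*, the lactoferrin gene, whose start is 38248 bases from that of *Ccrl2*, rose from 0.862 ± 0.123 to 2.36 ± 0.262 CPM (log2 fold change 1.44, FDR = 3.13e-04, edgeR).

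*Hcar2* (ENSMUSG00000045502, chr5:123863570-123865499, minus strand) encodes the receptor for the ketone body β-hydroxybutyrate and for niacin. It had 2.54, 2.54 and 2.73 CPM in the WT libraries and 1.09, 1.11 and 1.36 CPM in the Scd2-m/-m libraries, from 117 to 139 and from 56 to 79 counts. The WT libraries lay close together, and the highest Scd2-m/-m library was well below the lowest of them. The mean fell from 2.60 ± 0.114 to 1.19 ± 0.148 CPM, which is 2.19-fold lower (log2 fold change −1.13, standard error 0.19, 95% confidence interval −1.53 to −0.73, FDR = 8.58e-04, edgeR). *Hcar1*, the lactate receptor gene with its start 14521 bases away, had 0 CPM in 5 libraries and 0.0179 CPM in Scd2-m/-m replicate 1. Among 5 tested protein-coding genes with starts within 150 kb, 1 was called, against 17.5% of all genes. This was *Kntc1*, 115783 bases away, which rose from 0.586 ± 0.262 to 3.14 ± 0.298 CPM (log2 fold change 2.4, FDR = 2.9e-05, edgeR).

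*Gpr84* (ENSMUSG00000063234, chr15:103308235-103310612, minus strand) encodes a receptor for medium-chain fatty acids that is known to be induced in inflamed macrophages. It had 75.6, 46.6 and 33.3 CPM in the WT libraries and 30.5, 22.1 and 22.6 CPM in the Scd2-m/-m libraries. The WT libraries were spread widely, with a coefficient of variation of 41.8%, and the lowest of them was just above the highest Scd2-m/-m library. The mean was 51.8 ± 21.7 CPM in WT and 25 ± 4.73 CPM in Scd2-m/-m BMDMs, and this difference did not pass the test (log2 fold change −1.05, standard error 0.37, 95% confidence interval −2.04 to −0.06, FDR = 0.147, edgeR), though it did with DESeq2 (−1.06, FDR = 0.0359). Without each library in turn the log2 fold change ranged from −1.29 to −0.67. An annotated transcript on the opposite strand, *Gm49482*, covered 37.8% of the 50-base stretches of its exons and was not a row of the count table. The sources used here do not say whether counting used strand, so reads of the 2 transcripts cannot be told apart over the shared stretches.

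*Gpr35* (ENSMUSG00000026271, chr1:92950865-92986391, plus strand) encodes a receptor for which kynurenic acid, a breakdown product of tryptophan, has been proposed as a ligand. It had 1.53, 1.37 and 1.32 CPM in the WT libraries and 2.02, 1.77 and 1.84 CPM in the Scd2-m/-m libraries. All Scd2-m/-m libraries were above the WT libraries, at 89 to 113 counts against 63 to 76 counts. The log2 fold change was 0.42 (95% confidence interval 0.01 to 0.83) and did not pass the test (FDR = 0.157, edgeR).

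*Adora2b* (ENSMUSG00000018500, chr11:62248984-62266453, plus strand) encodes the low-affinity adenosine receptor, which raises cyclic AMP. It had 5.50, 4.81 and 5.02 CPM in the WT libraries and 3.17, 3.30 and 3.41 CPM in the Scd2-m/-m libraries. The groups were well apart and narrow. The mean fell to 64.5% of the WT mean, from 5.11 ± 0.352 to 3.29 ± 0.118 CPM (log2 fold change −0.63, standard error 0.13, 95% confidence interval −0.91 to −0.36, FDR = 0.00382, edgeR). Of the other adenosine receptor genes, *Adora2a* did not pass the test (−0.43, FDR = 0.313) and *Adora3* rose from 1.58 ± 0.0933 to 2.50 ± 0.290 CPM (0.66, FDR = 0.0214, edgeR).

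**Figure D3:**
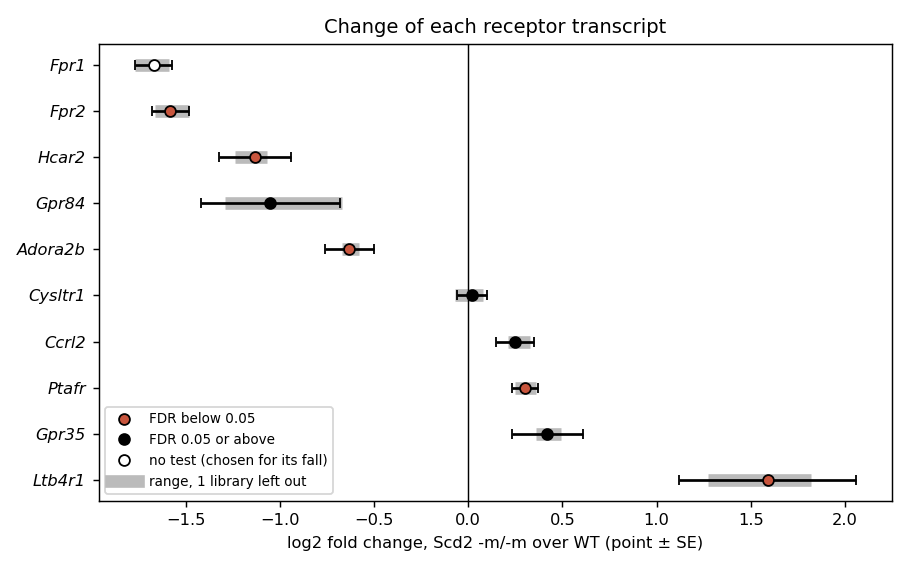
Log2 fold change, Scd2-m/-m over WT, of each receptor transcript (point) with its standard error (black bar) and the range when each library is left out in turn (grey bar). Red points were called at an FDR below 0.05 (edgeR), black points were not, and the white point of *Fpr1*, at −1.67, was not tested; *Cysltr1* lies at 0.02 and *Ltb4r1* at 1.59 with the widest error.

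Levels of different receptors were compared per kilobase of exonic length. In WT BMDMs *Ptafr* was highest, at 91.3 ± 6.81 CPM per kilobase, followed by *Gpr84* (30.0 ± 12.6), *Fpr1* (19.9 ± 2.49) and *Fpr2* (17.6 ± 1.57). The libraries of *Gpr84* and *Fpr1* overlapped, as did those of *Fpr1* and *Fpr2*, so the order within each of these pairs was not resolved. *Cysltr1* (9.64), *Ccrl2* (3.99), *Adora2b* (2.77), *Hcar2* (1.35), *Gpr35* (0.290) and *Ltb4r1* (0.113) followed without overlap between neighbours. In Scd2-m/-m BMDMs *Ptafr* was again highest, at 113 ± 4.38 CPM per kilobase, and *Gpr84* next (14.5 ± 2.74). There *Cysltr1* (9.77) stood above *Fpr1* (6.26) and *Fpr2* (5.88), while *Gpr35* (0.388) and *Ltb4r1* (0.340) overlapped. The range from the lowest to the highest receptor spanned over 2 orders of magnitude in both genotypes.

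**Figure D4:**
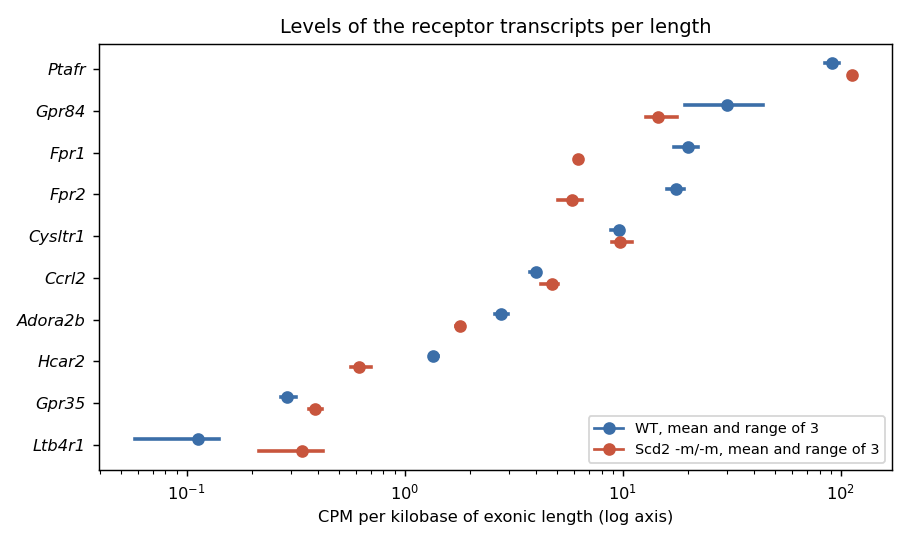
Level of each receptor transcript in CPM per kilobase of exonic length (log axis), as the mean (point) and range (line) of 3 WT (blue) and 3 Scd2-m/-m (red) libraries. *Fpr1* and *Fpr2* are above *Cysltr1* in WT, at 19.9 and 17.6 against 9.64, and below it in Scd2-m/-m BMDMs, at 6.26 and 5.88 against 9.77.

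The genes most like *Fpr1* across the 6 libraries were found among 9488 genes with a mean of at least 5 CPM, by the correlation of log2 CPM. *Pde8a*, *Nfkb1*, *Tns3*, *Zdhhc5* and *Xylt2* came first, with r from 0.9981 down to 0.9965, and *Fpr2* ranked 28 with r = 0.990. The 6 points fall into 2 genotypes. A gene that is lower in Scd2-m/-m BMDMs can therefore reach a high r with a small change, where its spread within each genotype is low. The log2 fold changes of these 5 genes were small, from −0.63 to −0.14, and *Tns3* (FDR = 0.0501) and *Zdhhc5* (FDR = 0.0973, edgeR) were not called. Of the other receptors with at least 5 CPM, r was 0.826 for *Gpr84*, −0.076 for *Cysltr1*, −0.789 for *Ccrl2* and −0.933 for *Ptafr*.

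Related receptors were read from 2 further lists. Of 28 chemoattractant and lipid mediator receptors, 19 were tested, 3 were higher and 6 lower, and the median of their log2 fold changes was −0.05. *Gpr18*, a receptor for lipid ligands, fell from 7.5 ± 1.03 to 3.20 ± 0.425 CPM (log2 fold change −1.23, FDR = 5.19e-05, edgeR). *Ptger4*, a prostaglandin E2 receptor gene (−0.40, FDR = 4.99e-04), *C5ar2*, the second receptor for complement fragment C5a (−0.53, FDR = 6.55e-04), and *Lpar1*, a lysophosphatidic acid receptor gene (−0.63, FDR = 0.0261), also fell, while *Ptger3*, another prostaglandin E2 receptor gene (1.25, FDR = 0.00363), and *Ptgir*, the prostacyclin receptor gene (0.62, FDR = 0.00233), rose (edgeR). *C3ar1*, the receptor gene for complement fragment C3a and the most abundant of the list, had 2020 ± 61.7 CPM in WT and 1960 ± 137 CPM in Scd2-m/-m BMDMs and was not called (FDR = 0.700, edgeR). Of 20 receptors for metabolites, protons and adenosine, 9 were tested, and 1 rose and 1 fell. The number that rose was 0 without WT replicate 2, Scd2-m/-m replicate 1 or Scd2-m/-m replicate 2, and 3 without WT replicate 3. Beside *Adora3*, this was *Gpr65*, a proton-sensing receptor gene, which fell from 131 ± 3.14 to 89.8 ± 12.0 CPM (−0.55, FDR = 3.87e-04, edgeR). The called shares were 47.4% of the tested genes in the first list and 22.2% in the second, beside the 17.5% of all genes.

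**Figure D5:**
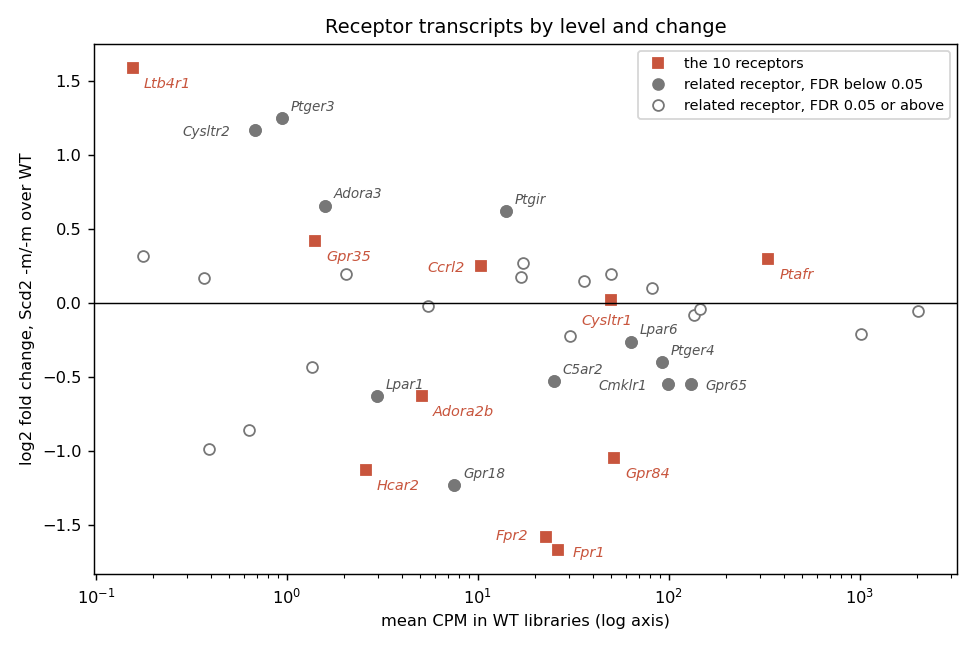
Log2 fold change, Scd2-m/-m over WT, against mean WT level in CPM (log axis) for the 10 receptors (red squares, called or not) and the 28 tested related receptors (grey circles, filled when the FDR was below 0.05). *Fpr1* and *Fpr2* lie lowest, at −1.67 and −1.58, and *Gpr18* is the lowest of the related receptors, at −1.23.

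Of the genes that couple or silence these receptors, 25 of 40 did not pass the test. All 40 were tested, 4 were higher and 11 lower (37.5% called, against 17.5% of all genes), and the median of their log2 fold changes was −0.10. Lower were *Prex1*, a Rac activator downstream of chemoattractant receptors (822 ± 25.6 to 609 ± 2.14 CPM, −0.43, FDR = 2.06e-04), *Arrb2*, a β-arrestin gene (−0.41, FDR = 5.51e-04), *Grk2*, a receptor kinase gene (−0.34, FDR = 0.00196), *Pik3cg*, the catalytic subunit gene of phosphoinositide 3-kinase gamma (−0.25, FDR = 0.0193), and *Gnaq*, a G protein alpha subunit gene (−0.22, FDR = 0.0220, edgeR). Higher were *Plcb2*, a phospholipase C gene (0.35, FDR = 0.00105), *Gnb4*, a G protein beta subunit gene (0.44, FDR = 0.00622), *Rgs1*, a regulator of G protein signalling (0.72, FDR = 0.0224), and *Adcy7*, an adenylyl cyclase gene (0.21, FDR = 0.0471, edgeR). The counts moved when single libraries were left out. Of these genes, 2 were higher and 3 lower without WT replicate 2, likewise without Scd2-m/-m replicate 2, and 2 were higher and 7 lower without Scd2-m/-m replicate 3. *Gnai2*, the Gi subunit gene and the most abundant of the list, was not called (1380 ± 66.1 and 1250 ± 51.2 CPM, −0.14, FDR = 0.167, edgeR).

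Genes that make or remove ligands were the last list. Of 32 genes, 26 were tested, 5 were higher and 3 lower (30.8% called, against 17.5% of all genes), and the median of their log2 fold changes was 0.08. Without WT replicate 2, 3 were higher, and without WT replicate 1, 5 were lower. *Anxa1*, which encodes annexin A1, a ligand of the formyl peptide receptors, rose from 258 ± 23.6 to 364 ± 12.4 CPM (log2 fold change 0.50, FDR = 2.62e-04, edgeR). Of the genes of platelet-activating factor turnover in the list, 2 were called, and both fell. *Lpcat2*, which makes it, went from 111 ± 7.22 to 84.0 ± 9.23 CPM (−0.40, FDR = 0.00329), and *Pla2g7*, the acetylhydrolase that removes it, from 153 ± 10.6 to 87.7 ± 13.4 CPM (−0.80, FDR = 3.12e-04, edgeR). Not called were *Lpcat1* (−0.22, FDR = 0.0515), *Pafah1b1* (−0.09, FDR = 0.338), *Pafah1b2* (0.09, FDR = 0.454) and *Pafah1b3* (0.25, FDR = 0.0691, edgeR), which went both ways. In the leukotriene branch, *Alox5ap*, which presents arachidonic acid to 5-lipoxygenase (0.33, FDR = 0.00688), *Ltc4s*, the leukotriene C4 synthase gene (0.43, FDR = 0.0453), and *Ptgr1*, a reductase that inactivates leukotriene B4 (0.80, FDR = 4.48e-05), rose, and *Ggt5*, which converts leukotriene C4 to D4, fell (−0.88, FDR = 0.00536, edgeR). *Adk*, the adenosine kinase gene, rose from 15.4 ± 1.06 to 22.5 ± 0.440 CPM (0.55, FDR = 2.42e-04, edgeR), and *Dpep2*, a dipeptidase that acts on leukotriene D4, was not called (350 ± 3.00 and 317 ± 16.9 CPM, −0.14, FDR = 0.131, edgeR).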

How the data were processed

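Poly(A)-selected RNA of 6 BMDM samples, 3 per genotype, was sequenced. Reads were aligned by the authors with STAR to the mouse genome (GRCm38, Ensembl), and the deposited values are raw counts for each gene. The sources used here do not name the counting tool, its strand setting or its filters. A table of the authors' own comparison (log2 fold changes, p-values and log2 CPM) was not used. Of 40757 rows in the count table, 276 repeated a gene and were removed. Replicates of a genotype differed by more than sampling noise (chi-square per gene 10.4 to 31.9). Depth was 46285176 to 57629638 counts per library, so genes below 1 CPM rest on few counts.

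Genotypes were compared with edgeR 4.0.16 (filterByExpr, TMM, glmQLFit with robust estimation, glmQLFTest) in R 4.3.3, with FDR by the Benjamini-Hochberg method. On simulated counts for the 14778 genes of this comparison, with 200 genes changed, it recovered 84.8% of those with a log2 fold change of 1 and 99.0% of those with 2, and 5.3% of calls were false. Each simulated gene had the typical spread of genes at its level and none of its own, so these shares may not hold for the real counts. Alternatives were RLE and upper-quartile factors, other filters, DESeq2 1.42.0, limma-voom (limma 3.58.1) with and without quality weights, a replicate block, leaving out each library, halved counts and an FDR of 0.01.

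The receptors and gene lists were chosen with earlier results of these data known. The text names all 10 receptors and *Scd2*, the called genes of smallest p (at most 5 per direction) and the most abundant gene of each of 4 related lists, close paralogs or neighbours, the 5 genes most like *Fpr1*, and defining or called marker genes, of which a few are not reported here. *Spaca6*, *Has1*, *Gm5966* and *Gm49482* fall outside this rule and were taken for their position or shared sequence. *Lpcat1*, *Pafah1b1*, *Pafah1b2* and *Pafah1b3* also fall outside it and were added as uncalled genes of platelet-activating factor turnover. Coordinates and exonic lengths come from the GENCODE annotation of GRCm38, found for 99.7% of genes.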

Additional observations from a re-analysis of the deposited data

How the results depend on the processing

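The falls of *Fpr2*, *Hcar2* and *Adora2b* and the rise of *Ptafr* kept their direction and their call in all 17 alternatives, the FDR of 0.01 included, and *Gpr35* kept its direction without a call in all 17. *Ltb4r1* lost its call under several alternatives. It was no longer tested with at least 10 counts in every library, at least 1 CPM in 3 libraries or halved counts, which together with an FDR of 0.01 left 1 receptor higher, and limma-voom with quality weights gave 1.05 (FDR = 0.0741). Among counts of 1 to 20 in these libraries 60.9% to 64.9% were even. *Cysltr1* changed sign to −0.04 with quality weights, to −0.04 without WT replicate 1 and to −0.07 without Scd2-m/-m replicate 3, and ranged up to 0.08 when other libraries were left out. Over all tested genes, same-numbered samples did not deviate together (correlations 0.053, −0.0196 and 0.0398). With 3 samples per genotype, this cannot settle whether the numbers pair them. In both genotypes, replicates 1 and 3 differed most (chi-square per gene 31.9 in WT and 30.4 in Scd2-m/-m). With the replicate number as a block, 2974 genes were called, *Gpr84* was called at −0.99 (FDR = 9.88e-04), as with DESeq2 (−1.06, FDR = 0.0359), and 8 ligand genes were higher. The cause of these shifts was not tested.

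With quality weights, 2372 genes were higher and 2213 lower, 2 metabolite receptors, 7 coupling and 8 ligand genes were higher, 6 ligand genes were lower, *Scd2* was at −0.82 (FDR = 0.0215) and *Ccrl2* was called at 0.33 (FDR = 0.00734). Without a filter beyond 1 count, 3 metabolite receptors, 7 coupling and 8 ligand genes were higher. At an FDR of 0.01, 783 genes were higher and 548 lower, with 0 metabolite receptors and 2 coupling genes higher and 3 coupling genes lower. Leaving out each library gave 869 to 1392 genes higher and 571 to 1175 lower, with the fewest called without WT replicate 2 or Scd2-m/-m replicate 2 (1490 and 1440). Of the receptors other than *Fpr1*, 1 to 2 were then higher and 3 to 3 lower. The chemoattractant list had 3 to 4 higher and 4 to 5 lower, the metabolite list 0 to 3 higher and 1 lower, the coupling list 2 to 5 higher and 3 to 10 lower, and the ligand list 3 to 6 higher and 3 to 5 lower. *Scd2* ranged from −0.83 to −0.48. With the longest transcript as length, 8 of 10 receptors kept their place in each genotype's order, *Fpr1* and *Fpr2* changing places. By rank correlation, 2 of the 5 genes most like *Fpr1* were among the 57 with a coefficient of 1.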
